A study of Arabidopsis thaliana with 12 samples.

Results

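CML41 (AT3G50770, probe 1240) and CML30 (AT2G15680, probe 1479) are the 2 Arabidopsis thaliana genes with a calmodulin-like (CML) name that had a probe of their own here. Of 3439 probes in all, 1877 carry no gene name and could hold others. CML41 and CML30 are 2 of the 692 probes that carry exactly 1 gene. Both were chosen by name, with their difference between light and dark already known. Their values in that contrast are therefore given as a description, without a test. RNA came from wild-type Columbia 0 plants, the usual laboratory ecotype. One group of 6 samples was light adapted, and the other group of 6 was light adapted and then kept in darkness for 1 h. The labels give no plant age, tissue, transgene or further treatment, and do not say whether samples came from separate plants, so the spread between samples may be technical.

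Calmodulin is a small calcium sensor whose EF-hand motifs, helix-loop-helix folds, bind calcium ions and change the shape of the protein, which then binds its targets. Plants have a large family of calmodulin-like (CML) proteins, built mainly of EF-hands, in addition to calmodulin itself. Calcium in the plastid stroma of leaves is known to rise after the light is turned off. CML41 is known as a protein of plasmodesmata, the channels between plant cells, where it takes part in callose deposition during the response to bacteria. CML30 is known as a CML protein that is targeted to mitochondria. The annotation table gives each gene 1 transcript, with a gene span of 926 bp for CML41 and 647 bp for CML30.

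CML41 and CML30 differed between light and dark in opposite directions. The CML41 signal was 3.55 times higher after 1 h of darkness than in the light. The CML30 signal was 2.20 times lower. These folds come from differences of mean log2 intensity after quantile normalization, which gives all samples the same distribution of values. Intensity is on the authors' linear scale, which ends at 100 in each sample. Neighbouring sample numbers (1 and 2, 3 and 4, 5 and 6) resemble each other across the array, so they were averaged to 3 replicates per group, and means ± SD below refer to these.

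**Figure D1:**
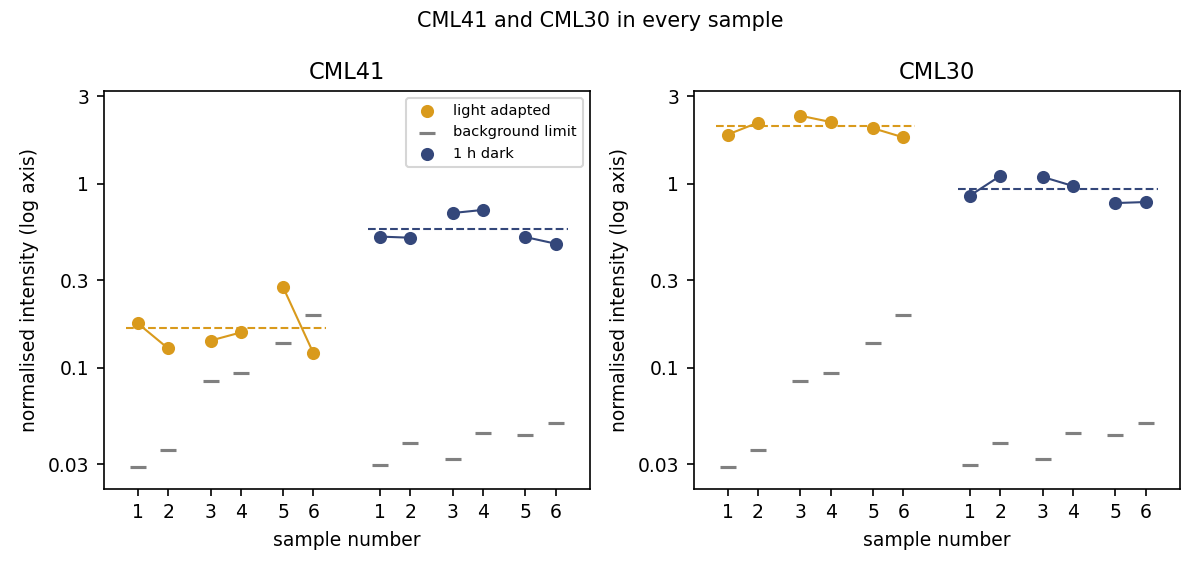
Normalised intensity of CML41 and CML30 (log axis, no unit) in each of the 12 samples, with neighbouring sample numbers joined, group means dashed and the background limit of each sample as a grey bar. CML41 lies between 0.120 and 0.274 in the light and between 0.473 and 0.722 in the dark, CML30 between 1.79 and 2.35 and between 0.787 and 1.11.

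CML41 had the weaker signal in the light, at a mean log2 intensity of -2.66. The median over all probes of the mean log2 intensity in the 12 samples was -3.70. In light-adapted samples 1 to 6 the normalised intensity of CML41 was 0.174, 0.128, 0.141, 0.156, 0.274 and 0.120. In dark samples 1 to 6 it was 0.517, 0.510, 0.695, 0.722, 0.514 and 0.473. Every dark sample was above every light-adapted one. Among the dark samples, 3 and 4 were the highest, and the other 4 lay close together. Light-adapted sample 5 stood above the rest of its group, and sample 6, its neighbour in number, was the lowest. These neighbours were 1.19 apart on the log2 scale, against at most 0.120 for neighbours in the dark group.

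The light-adapted mean of CML41 was 0.165 ± 0.0273 (SD, n = 3), and the dark mean was 0.572 ± 0.119. The difference in mean log2 intensity was 1.83 (SE 0.18). It was 1.78, 2.26 and 1.44 in the 3 pairs of averaged replicates with the same number. For single sample numbers 1 to 6 it was 1.57, 2.0, 2.30, 2.21, 0.91 and 1.98, so sample number 5 had the smallest difference. The difference was thus positive for all 6 numbers. Without light-adapted sample 5 it was 2.03, and without light-adapted sample 6 it was 1.63.

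How far the light-adapted level of CML41 stood above background differed between samples. Each sample was given a background limit, the level that 95% of its readings stayed under among probes at 0 in the sample it was averaged with. For the light-adapted group, numbers 1 and 2 had limits of 0.0289 and 0.0360, numbers 3 and 4 of 0.0850 and 0.0934, and numbers 5 and 6 of 0.136 and 0.194. Dark samples had limits of 0.0295 to 0.0501. CML41 passed the limit in every dark sample and in 5 of 6 light-adapted ones, all but sample 6. The limit of light-adapted sample 6 was the highest, and 29.8% of all probes passed it. Leaving out light-adapted samples 3 to 6, where the limit was raised, gave a log2 difference of 1.92 (SE 0.30) from the 1 light-adapted replicate that remained. That replicate was assumed to vary like the others.

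CML30 was well above the background limit in all 12 samples. Its normalised intensity was 1.86, 2.15, 2.35, 2.17, 2.01 and 1.79 in light-adapted samples 1 to 6. In dark samples 1 to 6 it was 0.864, 1.11, 1.09, 0.975, 0.787 and 0.797. Every dark sample was below every light-adapted one. Dark samples 5 and 6 were the lowest of all. The highest value of the light-adapted group was 1.31 times its lowest, and in the dark group this ratio was 1.40.

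The light-adapted mean of CML30 was 2.05 ± 0.185 (SD, n = 3), and the dark mean was 0.937 ± 0.128. The difference in mean log2 intensity was -1.14 (SE 0.14). In the 3 pairs of averaged replicates it was -1.03, -1.13 and -1.26. For single sample numbers 1 to 6 it was -1.10, -0.96, -1.10, -1.16, -1.35 and -1.17. It was thus negative for all 6 numbers and varied less between them than that of CML41. RNA was taken from many cells at once, so a lower level per cell and fewer cells that express the gene cannot be told apart.

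**Figure D2:**
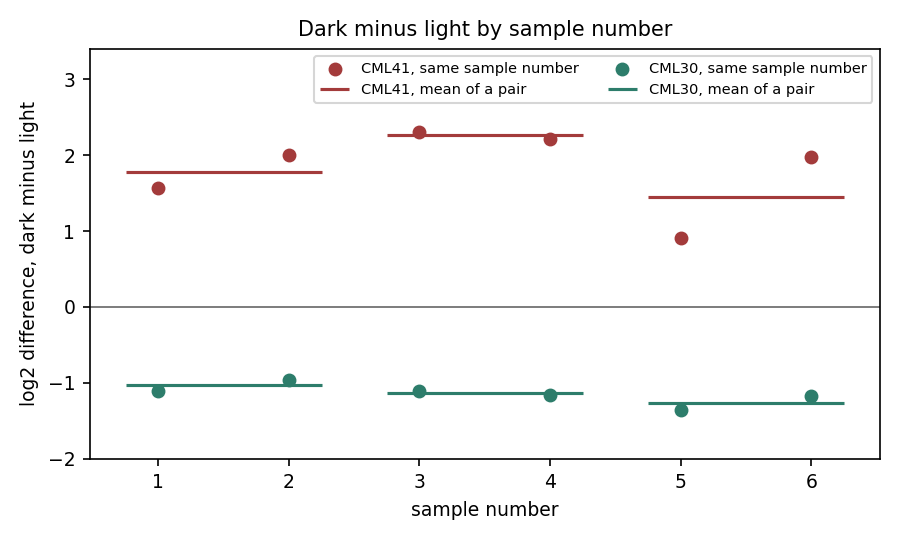
Log2 difference of normalised intensity, dark minus light, for each sample number (points) and for the averaged replicates of the same number (bars). CML41 lies between 0.91 and 2.30 and CML30 between -1.35 and -0.96, with no number on the other side of 0.

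The deposited values, before normalization, put the 2 genes in the same order. Deposited CML41 intensity ran from 0.105 through a median of 0.189 to 0.259 in the light, and from 0.365 through 0.414 to 0.790 in the dark. Deposited CML30 intensity ran from 1.72 through 1.88 to 2.89 in the light, and from 0.597 through 0.842 to 1.24 in the dark. The groups of each gene did not overlap here either. For both genes the dark samples 3 and 4 had the highest deposited values of their group, and CML30 was also highest in light-adapted samples 3 and 4. These 4 samples had column means of 0.940 to 0.976, against 0.665 to 0.773 in the other 8. Without normalization the log2 difference was 1.51 (SE 0.31) for CML41 and -1.32 (SE 0.33) for CML30.

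Set side by side, the size of the log2 difference was larger for CML41 than for CML30 at 5 of the 6 sample numbers, all but number 5. CML41 was under the background limit in light-adapted sample 6, where that limit was highest, while CML30 was well above it throughout. The sizes thus come from signals that were not equally well measured. Around their group means CML41 varied with an SD of 0.34 on the log2 scale and CML30 with an SD of 0.18. Over the 12 samples the log2 values of the genes had a Pearson correlation of -0.88, which holds the difference between the groups. After the group means were taken off it was 0.20. Neighbouring sample numbers resemble each other, so the 12 samples are not independent and neither value comes with a test. Probes differ in how brightly they report a transcript, so the levels of the 2 genes were not compared with each other.

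As background for these values, limma called 7.62% of the 3439 probes (262) at an adjusted p under 0.05 (Benjamini-Hochberg), with 4.25% higher and 3.37% lower in the dark. In a fit with pairs as a replicate block it was 0, with 797 probes at an unadjusted p under 0.05 and a smallest adjusted p of 0.0629 in limma. It was 13, 84 and 64 without the first, the second or the third averaged dark replicate. Groups of 6 and 6 samples that did not overlap, as those of CML41 and CML30, were seen for 15.3% of all probes, with 8.81% higher and 6.51% lower in the dark. Ordered by the log2 difference, CML41 was number 34 from the top of the 692 single-gene probes, and CML30 was number 75 from the bottom. The median log2 difference of all probes was 0.

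Few other genes of calcium signalling were found by name. The search used gene symbols and synonyms, so it missed genes without such a name and the 1877 unnamed probes. The list took in calmodulins and CML genes, calcineurin B-like proteins and their kinases, calcium-dependent kinases, calcium channels, pumps and exchangers, annexins and calmodulin-binding proteins. The annotation table names 14 CML genes by symbol or synonym, of which CML41 and CML30 have single-gene probes and 1 more is named on a probe with several genes. Beyond CML41 and CML30, 3 listed genes had a single-gene probe, and they are named here although none passed. None of the 3 passed in either direction in limma, and 0 had an unadjusted p under 0.05. Their median log2 difference was -0.07, beside 0 for all probes.

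GLR2.7, which belongs to the glutamate receptor-like family of ion channels, had a light-adapted mean of 0.204 ± 0.0114 (SD, n = 3) and a dark mean of 0.205 ± 0.0899. Its lowest, median and highest sample were 0.123, 0.216 and 0.263 in the light and 0.0778, 0.223 and 0.315 in the dark, so the groups overlapped. The log2 difference was -0.07 (SE 0.41, adjusted p = 0.984 in limma). GLR2.7 was above the background limit in all 12 samples.

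IQD22 and IQD32 encode proteins of the IQ-domain family, which bind calmodulin. IQD22 averaged 0.0824 ± 0.0180 in light-adapted and 0.113 ± 0.0346 in dark samples, with a log2 difference of 0.47 (SE 0.31, adjusted p = 0.444 in limma). Its probe passed the background limit in 2 of 6 light-adapted and all 6 dark samples. IQD32 had 0.0441 ± 0.0200 and 0.0368 ± 0.00671, a log2 difference of -0.21 (SE 0.38, adjusted p = 0.808 in limma). Its probe passed the limit in 1 of 6 light-adapted and 3 of 6 dark samples, so at this signal a difference was hardly measurable. Samples of the groups overlapped for both genes. A further 4 probes named a listed gene among several genes. None of these 4 passed in limma, 0 had an unadjusted p under 0.05, and their log2 differences ran from -0.43 to 0.26.

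**Figure D3:**
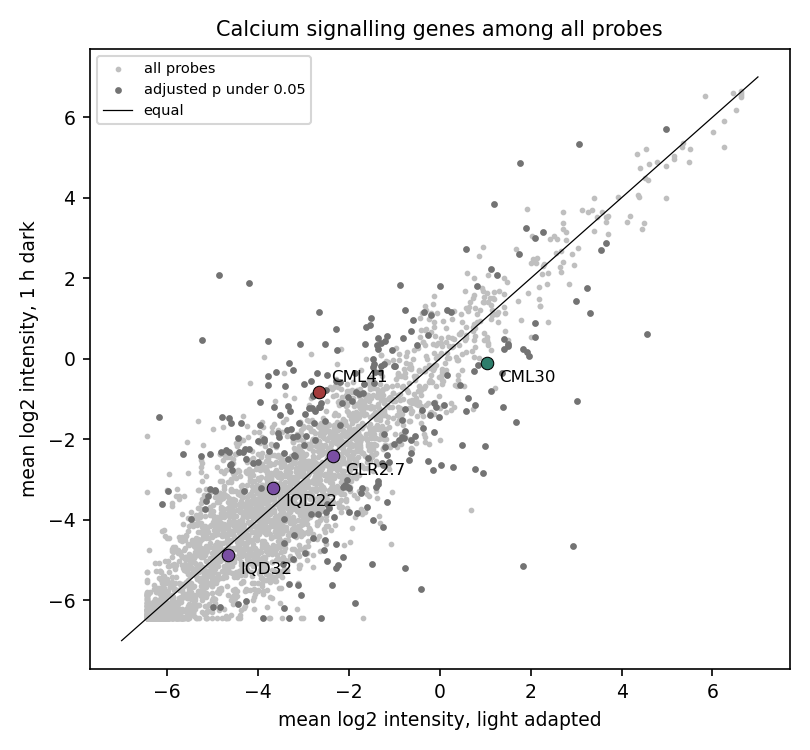
Mean log2 intensity of each of the 3439 probes in the light (x) and after 1 h of darkness (y), with probes at an adjusted p under 0.05 in darker grey and the line of equal values. CML41 lies 1.83 above the line and CML30 1.14 below it, while GLR2.7, IQD22 and IQD32 lie within 0.47 of it.

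The genes whose pattern over the 12 samples was most like that of CML41 were picked by the Pearson correlation of normalised log2 intensity. There were 510 single-gene probes to pick from, those with a mean above the lower quartile. SIS, named for its induction by salt, came first with r = 0.96. AT5G63390 followed with 0.95, AT3G45770 with 0.94, AT4G13550 with 0.94 and AT4G31930, a mitochondrial glycoprotein family gene, with 0.94. All 5 had higher values in every dark than in every light-adapted sample, and this difference between the groups is part of each correlation. Around the group means the correlations with CML41 were 0.36 to 0.64 for the first 4, with the highest for AT3G45770. For AT4G31930 the value was 0.33, close to those of AT4G13550 (0.36) and AT5G63390 (0.37). All 5 were well under r, so r holds much of the difference between the groups for each gene. AT4G31930 entered only through its dark values. It read 0 in 5 of 6 light-adapted samples and was set to the floor there. In the remaining one it was under the background limit, so its r too mainly restates the difference between the groups.

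SIS stood at 0.0827 ± 0.0163 (SD, n = 3) in light-adapted and at 0.433 ± 0.00166 in dark samples. SIS passed the background limit in 3 of 6 light-adapted samples, AT5G63390 in 2, AT3G45770 in 5 and AT4G13550 in all 6. The first 2 were thus near or under the limit in light-adapted samples 3 to 6, where it was raised. In light-adapted samples 1 and 2 SIS read 0.0731 and 0.0636, above limits of 0.0289 and 0.0360. AT3G45770 stood at 0.214 ± 0.00101 and 0.503 ± 0.162, and its highest dark samples were 3 and 4, as for CML41.

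The 5 genes most like CML30 were AT5G26850 with r = 0.95, AT3G06570 with 0.94, AT2G46630 and AT1G02020 with 0.93 each, and AT5G65220, the gene of plastid ribosomal protein L29, with 0.92. All 5 had lower values in every dark than in every light-adapted sample. Around the group means the correlation with CML30 was 0.48 for AT5G26850 and 0.06 for AT3G06570. It was -0.35 for AT2G46630, -0.23 for AT1G02020 and -0.15 for AT5G65220. Apart from AT5G26850, r thus mainly restates the difference between the groups. AT1G02020 had a dark mean of 0.0425 ± 0.0106 and passed the background limit in 3 of 6 dark samples, so its dark level was near background. AT5G26850 had means of 1.58 ± 0.334 (light) and 0.518 ± 0.0981 (dark). AT3G06570 was at 11.7 ± 0.760 and 6.51 ± 0.430, a log2 difference of -0.84 (SE 0.09), the smallest of these 5. These genes were picked for their likeness to genes that were themselves chosen, so their differences are a description.

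**Figure D4:**
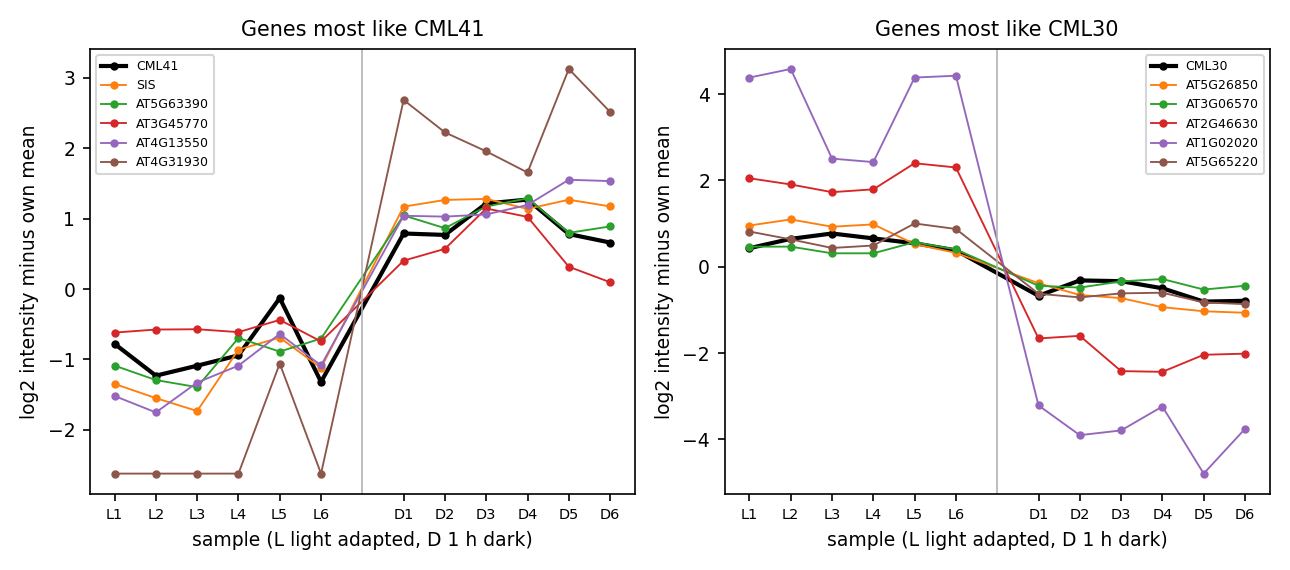
Normalised log2 intensity minus the gene's own mean over 12 samples, for CML41 and CML30 (black) and the 5 single-gene probes most like each; lines only guide the eye, since samples have no order. All genes on the left are higher and all genes on the right lower in the dark samples. The light-adapted values of AT4G31930 are at the floor or under the background limit, and AT1G02020 passed that limit in 3 of 6 dark samples.

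For the tissue, 6 markers listed for leaf had a single-gene probe. All are photosynthesis genes, so they cannot tell leaf from other green tissue. These markers, PSAN, PSBY, PSB27, PRK, PSBW and LHCB1.5 (LHB1B2 in the annotation), were above the limit in all 12 samples. Their summed normalised intensity was 74.6 to 95.7 in the light and 78.5 to 95.9 in the dark. Markers listed for guard cells, phloem, root and epidermis had no single-gene probe, so the part of those cells in the CML41 and CML30 values was not tested.

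Probes with neighbouring ID numbers were read beside both genes, and none of the 4 nearest passed in limma. Probe 1238, the nearest listed ID before CML41, had means of 0.240 ± 0.0418 (light) and 0.174 ± 0.0511 (dark). Probe 1241, the next ID after it, had a median of 0 in both groups. Probe 1246, singled out after its values were seen as the nearest probe with a mean intensity over 10, went from 12.7 ± 1.17 to 7.39 ± 0.496. It passed in limma (adjusted p = 0.0236) and was lower in every dark than in every light-adapted sample, opposite in direction to CML41. Its part in the CML41 values was not tested. Next to CML30, probe 1478 was above the limit in 1 dark sample and no light-adapted one. Probe 1480, which carries AT1G11800, had a median of 0.0621 in the light and 0.0277 in the dark, with a log2 difference of -1.89 (SE 0.91, adjusted p = 0.302 in limma). The nearest probe to CML30 with a mean over 10 was 48 IDs away.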

How the data were processed

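The deposited values are intensities of a 1-channel expression array, on a linear scale from 0 to 100 as the values show. How the authors scanned, background-corrected and scaled the arrays is not given in the sources used here. Groups and sample numbers came from the sample titles. Column medians differed by more than 2%, so quantile normalization was applied. A floor at the 5th percentile of deposited positive values (0.0116) preceded the log2 step. Neighbouring sample numbers were averaged, and limma 3.58.1 (R 4.3.3; lmFit, eBayes, dark minus light, Benjamini-Hochberg) was run on all 3439 probes. Figures used matplotlib 3.10.9. The fit was run on simulated data with independent noise. That simulation held no shared deviation of samples with the same number, so it could not check this feature of the data. CML41, CML30, the calcium list and the processing were chosen with earlier results of these data known. Named genes by rule were CML41 and CML30, listed calcium genes that passed (none did), the 5 most correlated probes of each, and neighbouring IDs. The 3 calcium genes that did not pass and probe 1246 were named after their values were seen, and the leaf markers come from a fixed list. Gene names came from the platform annotation, updated by gene ID through a RefSeq table of TAIR10.1 (690 of 692 single-gene probes matched). Coordinates are left out, since the probes name no build. Sequences were not used here. The number of arrays limits the precision.

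Samples of the same number deviated together in the light and dark groups, with correlations over all probes between 0.132 and 0.219 (single samples) and of 0.121, 0.147 and 0.208 (averaged replicates). This pairing rests on the data, since the labels state none, and the reported fit has no term for it. Averaging and normalization follow an earlier treatment of the whole series. The alternatives were 6 samples against 6, fixed and random blocks, other normalizations, floors and spread estimates, a filter on dim probes, and leaving out samples.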

Additional observations from a re-analysis of the deposited data

Results flagged for a closer look

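Of 22 groups of 6 samples examined (CML41, CML30, the 3 other calcium genes and the probes near by ID, each in light and dark), 5 had a sample far from the rest. The rule set the gap to the nearest value against the range of the 6, on linear intensity. Chance gives about 1 in 20 for independent, normally distributed values. These are not such values, since neighbouring numbers resemble each other and many dim values are 0. For CML41 this was light-adapted sample 5 at a normalised intensity of 0.274, with the other 5 between 0.120 and 0.174. On the log2 scale, where the rule was not run, it was at -1.87 and the others between -3.06 and -2.52. The gap is a smaller part of the range there, so this flag depends on the scale. In the same sample probe 1241, whose ID follows that of CML41, read 0.0520, with the other light-adapted samples at 0.00262 or less. Probe 1241 was under the background limit in all 12 samples. It also read 0.00740 in dark sample 2 and 0 in the other dark samples. Probe 1480, whose ID follows that of CML30, read 1.13 in light-adapted sample 6 and 0.0281 to 0.0802 in the others. Probe 1246 read 8.40 in dark sample 1 and 6.87 to 7.43 in the other dark samples. CML30 had no such sample in either group.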

How the results depend on the processing

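The log2 difference of CML41 was positive and that of CML30 negative under all 28 alternatives run for each. Fits on single samples, blocks and other floors left both estimates unchanged. Leaving out samples could not turn the sign, since the groups of each gene did not overlap. The count of 28 is thus no measure of how firm the signs are. Without normalization the differences moved by more than the spread between replicates, to 1.51 for CML41 and -1.32 for CML30, and the cause was not tested. The other 27 stayed within that spread. With samples left out the differences ran from 1.63 to 2.03 for CML41 and from -1.22 to -1.03 for CML30. The count of other calcium genes that passed in limma was 0 under all 30 alternatives (adjusted p from 0.256, for IQD22). This count covers only 3 probes, so it can show little, and in the fit with pairs as a replicate block no probe could add to it. Without the third averaged dark replicate, 1 of the 3 had an unadjusted p under 0.05 in limma. Of the array-wide count of 262 probes, none was left in a fit with pairs as a replicate block (0 probes). Fits on 12 single samples gave 814 with no block, 781 with a replicate block by sample number and 584 with random blocks of neighbours. The deposited scale without normalization gave 155 (34.8% higher in the dark, against 55.7% of the 262). With samples left out the count ran from 13 to 274. A balanced block leaves the estimates of CML41 and CML30 at 1.83 and -1.14, with SEs of 0.21 and 0.09 for the pair number. Leaving out both light-adapted replicates with raised limits was added after the data were seen. The dim signal of CML41 in the light, IQD22 and IQD32 limits what their values can show.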

Other observations

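Probes close in ID to a bright probe were dim. The 132 probes at 1 or 2 IDs from 1 of the 49 probes with a mean intensity over 10 had a median log2 intensity of -6.09, against -3.34 for the 253 probes 5 to 8 IDs away and -3.70 for all probes. CML41 was 6 IDs and CML30 48 IDs from the nearest such probe. Distances of 3 or 4 IDs and the part of such neighbours in the CML41 and CML30 values were not tested.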
